A study of Mus musculus with 12 samples.

Results

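The p53 pathway was followed through 9 genes: Trp53, which encodes p53, and the target genes Cdkn1a, Mdm2, Phlda3, Ccng1, Bax, Gadd45a, Sesn2 and Sfn. They were taken as every array probe that the platform annotation names with one of these symbols. That gave 13 of the 46637 probes analysed, belonging to 7 of the 9 genes. Trp53 and Bax have no probe under that annotation and were not analysed here. Of these probes, 11, at least 1 for each of the 7 genes, had a detection p-value under 0.05 on every array of 1 or more groups and were tested, as did 19444 of all probes, and 9343 named genes had at least 1 such probe. A 4th Ccng1 probe and a second Sfn probe did not pass.

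RNA was compared between 4 groups of mouse cells, each measured on 3 Illumina BeadChip arrays. The group labelled MEF holds primary embryo fibroblasts of strain FVB/N that carry neomycin resistance (PMEF_NL). The passage 5 and passage 15 groups are sphere cells of the same strain, described as converted from fibroblasts, and the title of the study names AlbuMAX I medium as the inducer. The MES group is the embryonic stem cell line J11 of strain 129/Sv, which the study took as its control, so every comparison with it is also one between strains. All MES and passage 15 arrays lay on chip 1. Replicates 1 and 2 of MEF and passage 5 lay on chip 2 and replicate 3 of both on chip 3, so chip and group cannot be told apart in any comparison that crosses from chip 1 to chips 2 and 3. Nothing in the labels says that replicates came from separate cultures, so the p-values measure the spread between these arrays, which may be technical.

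Of 46637 probes, between 15761 and 19060 were detected on an array, and arrays of one group correlated at r between 0.976 and 0.996. The 11 fibroblast markers with a probe were all detected on every MEF array, 8 on every passage 5 array, 4 on every passage 15 array and 5 on every MES array. Of 11 pluripotency markers with a probe, 10 were detected on every MES array, but 9 were also detected on every array labelled MEF, with a mean level per array of 9.23 to 9.93 there and 9.64 to 9.89 in MES on the log2 scale. The arrays labelled MEF therefore carried markers of both kinds. Primitive endoderm markers had their highest mean level at passage 5, 9.90 to 10.43 against 6.69 to 7.72 on the arrays of MEF and MES and 6.93 to 7.12 at passage 15. None of the 7 macrophage and blood markers with a probe was detected on all 3 arrays of any group.

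p53 is a transcription factor that accumulates when DNA is damaged, when oncogenes are active or when cells are stressed in culture. It binds elements made of a pair of decamers and switches on genes that stop the cell cycle, repair DNA or start apoptosis, and it also switches on Mdm2, the ubiquitin ligase that marks p53 for destruction. In embryonic fibroblasts the pathway limits growth in culture, and p53 and the product of Cdkn1a are known as barriers to reprogramming into pluripotent cells.

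Because the target genes are read out here as transcripts, the sequence before their starts is shown for 4 members whose arrays differed in pattern. These were Cdkn1a and Phlda3, which shared a pattern, Mdm2, which was called in no comparison, and Ccng1, whose probes disagreed. Each is the 250 bases upstream of a RefSeq start in GRCm38.p6, read 5′ to 3′ on the gene's strand. Capitals mark a match to the p53 consensus decamer or, in Cdkn1a, to a full element. The Cdkn1a window is chr17:29090729-29090978 on the plus strand, Phlda3 is chr1:135765835-135766084 on the plus strand, Mdm2 is chr10:117710759-117711008 on the minus strand, and Ccng1 is chr11:40755287-40755536 on the minus strand.
Cdkn1a: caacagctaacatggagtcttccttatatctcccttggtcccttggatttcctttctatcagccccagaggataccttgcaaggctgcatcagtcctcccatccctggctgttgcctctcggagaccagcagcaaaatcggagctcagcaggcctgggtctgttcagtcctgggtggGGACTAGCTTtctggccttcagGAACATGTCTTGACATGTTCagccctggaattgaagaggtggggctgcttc
Phlda3: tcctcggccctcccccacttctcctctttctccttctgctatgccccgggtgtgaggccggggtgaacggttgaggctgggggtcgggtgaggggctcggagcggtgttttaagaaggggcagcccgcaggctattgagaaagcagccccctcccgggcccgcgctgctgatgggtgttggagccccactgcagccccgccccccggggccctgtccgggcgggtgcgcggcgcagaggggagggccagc
Mdm2: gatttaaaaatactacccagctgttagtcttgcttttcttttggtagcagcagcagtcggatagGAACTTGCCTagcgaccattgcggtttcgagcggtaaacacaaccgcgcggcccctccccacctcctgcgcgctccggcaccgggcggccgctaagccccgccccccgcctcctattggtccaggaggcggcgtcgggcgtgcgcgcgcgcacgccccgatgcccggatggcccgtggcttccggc
Ccng1: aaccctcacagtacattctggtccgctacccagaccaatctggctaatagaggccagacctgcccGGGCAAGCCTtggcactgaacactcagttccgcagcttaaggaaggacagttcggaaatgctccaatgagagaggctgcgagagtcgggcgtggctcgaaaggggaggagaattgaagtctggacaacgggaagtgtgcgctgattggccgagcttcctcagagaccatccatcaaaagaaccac

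The Cdkn1a window held a decamer (GGACTAGCTT) that began 73 bases before the start and a 20-base full element (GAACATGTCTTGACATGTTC), with 1 mismatch, whose first decamer began 51 bases before the start. Cdkn1a has a second RefSeq start, whose window (chr17:29093519-29093768) held no match and is not shown. The full element lies further upstream of that second start, outside its window. Which start the measured Cdkn1a transcripts used was not examined. Mdm2 held 1 decamer (GAACTTGCCT), 186 bases before its start, and Ccng1 held 1 (GGGCAAGCCT), 185 bases before its start. The Phlda3 window held no match, which says only that these letters are absent there. Of the other members, Gadd45a held GGGCTAGCCC at 40 bases, Bax AGGCAAGCTT at 201 bases and Trp53 GGACTTGCCC at 75 bases, and Sesn2 and Sfn held none. The decamer reads the same on both strands by its consensus. It occurred in 7.13% of all 32851 windows of this length, and a full element with no spacer in 0.475%. A full element was allowed at most 3 mismatches, none of them in the central C(A/T)(A/T)G bases of either decamer. Of the 10 annotated starts of the 9 members, 6 held a decamer, and 2, those of Cdkn1a and Trp53, held a full element. An earlier version of the search used 300 bases that included the first 50 after the start and allowed a spacer of 1 base. There a full element occurred in 1.06% of windows, and Bax held one too. With that spacer in the 250-base windows the share was 0.88%, and Bax again held one. In 300 bases without a spacer the share was 0.572%, and Bax held none.

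Called member differences are given for each comparison beside the share of all genes called there. A gene was called when its brightest probe differed at least 2-fold at an adjusted p under 0.05. Against MES, the MEF arrays were higher in Cdkn1a and Phlda3 and lower in Sfn, 3 of 7 members, where 21.3% of all genes were called, 13.0% higher and 8.27% lower. In these bulk samples, fewer cells of a type and less RNA per cell cannot be told apart. Passage 5 spheres were lower than MEF in Cdkn1a and Phlda3, 2 of 7 members beside 11.8% of all genes (4.86% higher, 6.94% lower), and that count was 1 without MEF replicate 2 or without passage 5 replicate 3. Passage 15 spheres were lower than MEF in the same genes, Cdkn1a and Phlda3, and higher in Sfn, 3 of 7 members beside 26.5% of all genes (12.2% higher, 14.3% lower). With 7 genes these counts are descriptions of single genes, and comparisons that share MEF or MES arrays are not separate observations. Groups whose arrays did not overlap were common: they made up 66.2% of all genes for MEF against MES, 51.6% for passage 5 against MEF, 69.8% for passage 15 against MEF, 66.6% between the passages, 64.2% for passage 5 against MES and 42.9% for passage 15 against MES.

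Comparisons without MEF are given in the same way. From passage 5 to passage 15 Sfn rose, 1 of 7 members beside 17.0% of all genes, 6.73% higher and 10.3% lower (2 members without passage 5 replicate 1). Against MES, passage 5 spheres were lower in Sfn and Gadd45a, 2 of 7 members beside 14.6% of all genes, 9.95% higher and 4.68% lower (1 member without passage 5 replicate 3). No member was called between passage 15 spheres and MES, where 6.87% of all genes were called (3.35% higher, 3.52% lower). By limma, 1 member, Sfn, passed the adjusted p there and was the 1 past an unadjusted p under 0.05, but it was under 2-fold, and it was called without passage 15 replicate 3. The median log2 difference over the 7 members was 0.40 for MEF minus MES, -0.35 for passage 5 minus MEF and -0.35 for passage 15 minus MEF, beside -0.16, 0.05 and 0.13 over all genes. With 7 genes each of these was the value of 1 gene. It was Sesn2, near background, for MEF minus MES and passage 15 minus MEF. For passage 5 minus MEF it was the brightest Ccng1 probe, where the other tested Ccng1 probes gave 0.59 and 0.83. The medians of passage 15 minus passage 5, passage 5 minus MES and passage 15 minus MES were -0.20, 0.06 and -0.14 over the members and 0.01, -0.05 and 0.01 over all genes.

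**Figure D1:**
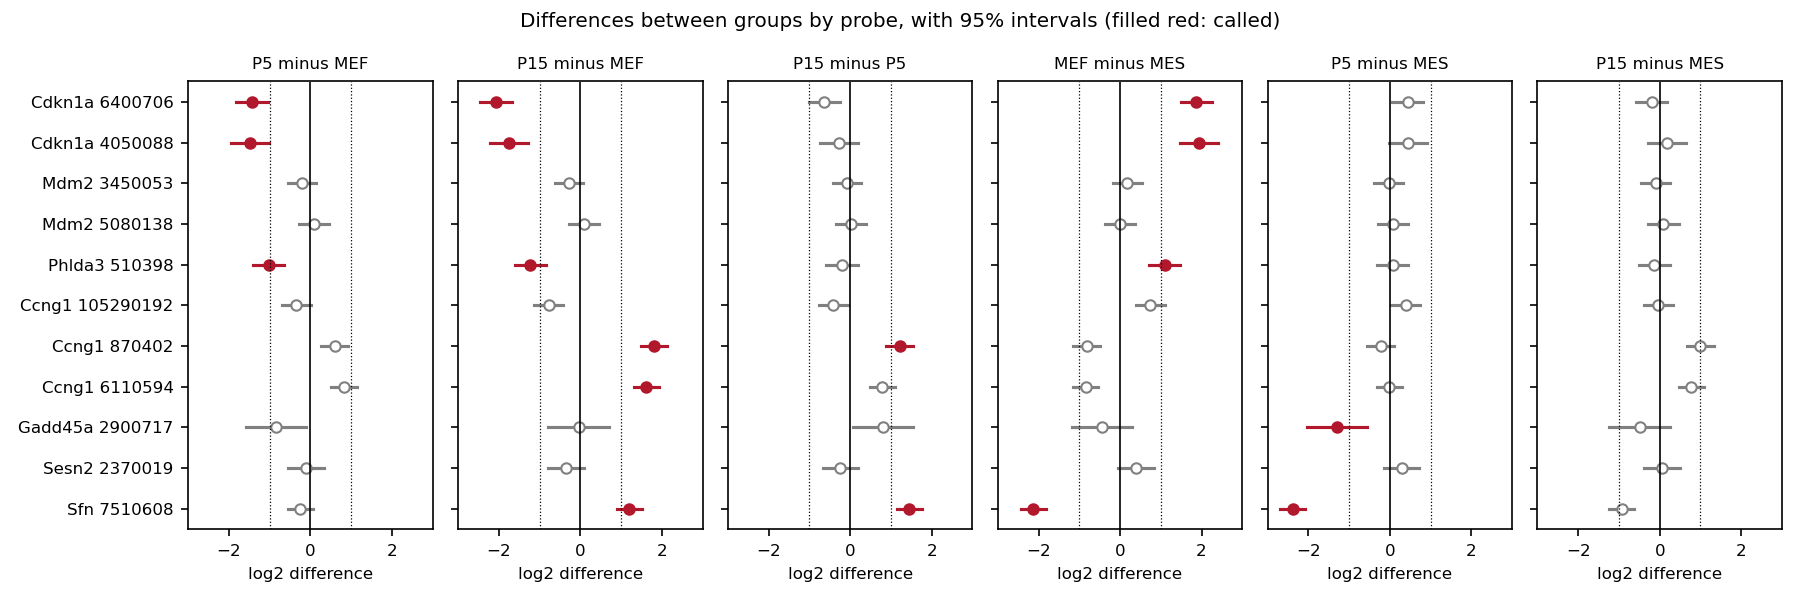
Log2 differences (x axis) of the 11 member probes that passed the detection filter in the 6 comparisons between MEF, passage 5 spheres (P5), passage 15 spheres (P15) and MES, with 95% intervals from the limma model; red filled points were called and dotted lines mark a 2-fold difference. Cdkn1a and Phlda3 lie to the right for MEF minus MES and to the left for both spheres minus MEF, Mdm2 lies near 0 throughout, and the 3 Ccng1 probes lie on both sides of 0.

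Mdm2, the regulator that p53 induces and that in turn destroys p53, was close to constant. Its brighter probe read 10.86, 10.99 and 10.99 on the log2 scale in the MEF arrays, 10.63, 10.81 and 10.78 at passage 5, 10.60, 10.54 and 10.86 at passage 15, and 11.13, 10.51 and 10.66 in MES. The highest and the lowest of all 12 arrays were both MES arrays, so MES overlapped every other group. The passage 5 arrays all lay below the MEF arrays, a separation seen in 51.6% of all genes for these groups. The widest difference between group means was that of passage 15 minus MEF, -0.28 with a 95% interval from -0.63 to 0.07 (adjusted p = 0.141). MEF minus MES was 0.18 (adjusted p = 0.351) and passage 5 minus MEF was -0.21 (adjusted p = 0.403). The sign of these 2 differences changed with the scaling. MEF minus MES was -0.11 with arrays scaled to the median of the detected probes, where the median of all genes stood at -0.36. Passage 5 minus MEF was 0.15 with arrays scaled to the median of all probes, where that median stood at 0.30. MEF minus MES thus stayed above the median of all genes and passage 5 minus MEF below it, as without these scalings. No setting tried called this probe in any comparison. The second Mdm2 probe lay near background, between 4.74 and 5.44, and was detected on 2 MEF arrays, 3 passage 5 arrays, 1 passage 15 array and 1 MES array.

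Cdkn1a encodes p21, the inhibitor of cyclin-dependent kinases through which p53 arrests cells before DNA replication. Its brighter probe read 10.59, 10.87 and 11.02 in the MEF arrays. At passage 5 it read 9.67, 9.41 and 9.10, at passage 15 it read 8.57, 8.73 and 8.96, and in MES it read 9.15, 8.87 and 8.83. The MEF arrays stood above all other arrays without overlap, and passage 5, passage 15 and MES formed a band in which passage 5 overlapped MES and MES overlapped passage 15, while passage 5 and passage 15 did not overlap.

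MEF exceeded MES in Cdkn1a by 1.87 ± 0.18 (SE, n = 3 per group) on the log2 scale, or 3.66-fold (adjusted p = 4.37e-06). Passage 5 fell by 1.43 from MEF, or 2.70-fold (adjusted p = 7.49e-05), and passage 15 fell by 2.07, or 4.20-fold (adjusted p = 1.32e-06). The fall at passage 5 was present on both shared chips, at -1.19 on chip 2 (2 arrays against 2) and -1.92 on chip 3 (1 array against 1), and with chip as a block its adjusted p was 0.00124. The second Cdkn1a probe gave 1.93, -1.48 and -1.75 for the same 3 comparisons (adjusted p = 1.45e-05, 0.000244 and 1.99e-05).

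Among passage 5, passage 15 and MES the Cdkn1a differences were smaller than 2-fold. Passage 15 lay below passage 5 by -0.64 (95% interval -1.02 to -0.25, adjusted p = 0.00843), but the second probe gave -0.27 (adjusted p = 0.302). With arrays scaled to the median of all probes that difference was -1.50 and was called, on a scale where the median of all genes itself shifted by -0.68; relative to that median it was -0.82. Passage 5 minus MES was 0.44 (adjusted p = 0.0551), and 1.24 and called under that scaling, where the median of all genes stood at 0.61. Passage 15 minus MES was -0.20, with an interval from -0.58 to 0.19 (adjusted p = 0.46). The second probe gave 0.18 there (adjusted p = 0.591). The order of the means on the brighter probe was MEF, passage 5, MES and passage 15, on the second probe passage 15 lay above MES, and neither passage 5 and MES nor MES and passage 15 differed past the test.

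Fibroblast markers moved with Cdkn1a. Of the 11 measured, 10 were called higher in MEF than in MES, 10 fell from MEF to passage 5 and 10 fell from MEF to passage 15. Their mean level per array ranged over 10.20 to 11.08 in MEF, 6.28 to 7.83 at passage 5, 5.48 to 5.67 at passage 15 and 6.30 to 6.45 in MES. Their part in the Cdkn1a result was not tested. Over the 12 arrays, the named gene with the highest Pearson r with Cdkn1a was Mmp2, a secreted matrix protease (r = 0.994, Spearman rho = 0.937). Lhfp, Itm2c, Tpm2, a tropomyosin, and Mmd came next, at r of 0.993, 0.993, 0.992 and 0.992. Their rho values were 0.923, 0.986, 0.993 and 0.937 in that order, so the ranking differed by rho. These are descriptions over 4 groups of 3 arrays that share chips. Among the members, the second Cdkn1a probe followed at r = 0.973 and Phlda3 at 0.927, while Mdm2 had 0.589, Sesn2 0.454, Gadd45a -0.02 and Sfn -0.615. Their rho values were 0.86, 0.776, 0.697, 0.427, -0.238 and -0.525 in that order. The Ccng1 probes had r of 0.826 for the brightest and -0.833 and -0.89 for the others, with rho of 0.713, -0.902 and -0.902.

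**Figure D2:**
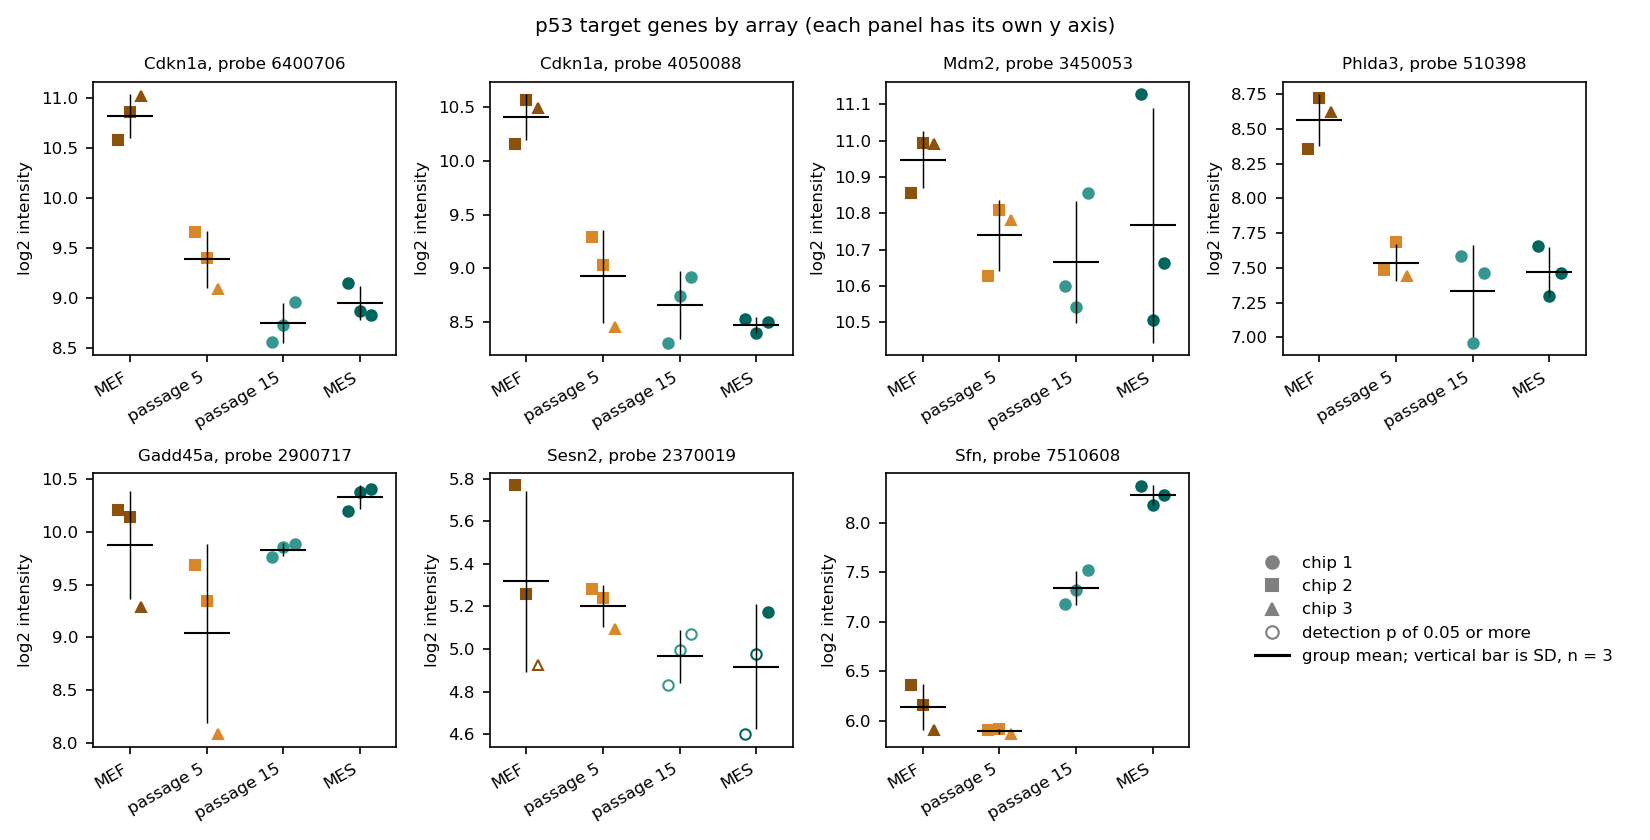
Log2 intensity (y axis, a separate scale for each panel) of 7 member probes on every array of MEF, passage 5 (P5), passage 15 (P15) and MES; marker shapes show the chip, open markers a detection p-value of 0.05 or more, horizontal bars the mean and vertical lines the SD (n = 3). Both Cdkn1a probes and Phlda3 are highest in MEF, and Sfn is highest in MES. Mdm2 overlaps between all groups except MEF and passage 5. Gadd45a is spread widely in MEF and at passage 5, and Sesn2 lies near background.

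Phlda3, which encodes a small protein that competes with AKT for membrane lipid and so favours apoptosis, had the same order of high and low groups on a smaller scale. It read 8.36, 8.72 and 8.62 in MEF, 7.48, 7.69 and 7.44 at passage 5, 7.58, 6.96 and 7.47 at passage 15, and 7.66, 7.30 and 7.46 in MES. Every MEF array lay above every other array, and the other 3 groups overlapped. MEF exceeded MES by 1.09 (adjusted p = 0.00023), passage 5 fell from MEF by 1.03 (adjusted p = 0.00081) and passage 15 fell by 1.23 (adjusted p = 6.59e-05). The first 2 of these lay close to the 2-fold limit. MEF minus MES was 0.94 in the authors' deposited normalized table, 0.98 without background correction and 0.96 with an offset of 50. Passage 5 minus MEF was under 2-fold in 9 alternatives. The smallest was -0.71 with arrays scaled to the median of all probes, where the median of all genes stood at 0.30. The 9 included the arrays of chip 2 alone (-0.95) and leaving out MEF replicate 2, passage 5 replicate 1 or passage 5 replicate 3. The difference was -1.17 between the single arrays of chip 3. Passage 15 minus passage 5, passage 5 minus MES and passage 15 minus MES were -0.20, 0.06 and -0.14. Bax, the apoptosis effector that p53 induces, has no value here.

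Gadd45a, a DNA damage gene whose protein acts in arrest and repair, was even on chip 1 and uneven on the other chips. It read 10.20, 10.37 and 10.41 in MES and 9.76, 9.85 and 9.88 at passage 15, but 10.20, 10.14 and 9.29 in MEF and 9.69, 9.34 and 8.08 at passage 5. In both uneven groups the low array was replicate 3, the one on chip 3. Passage 5 lay below MES by -1.29 ± 0.34 (SE, n = 3 per group, adjusted p = 0.00739) with no overlap of arrays, the only call for this gene. Without passage 5 replicate 3 the difference was -0.81, under 2-fold, and with arrays scaled to the median of all probes it was -0.57, where the median of all genes stood at 0.61; relative to that median it was -1.18, beside -1.24 in the same terms without that scaling.

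Passage 5 minus MEF was -0.84 in Gadd45a (adjusted p = 0.0884), with -0.66 on chip 2 and -1.21 between the single arrays of chip 3. With chip as a block its adjusted p was 0.00482, and it was called without MEF replicate 3 (-1.13) or without passage 5 replicate 1 (-1.17). Passage 15 minus passage 5 was 0.80 (adjusted p = 0.0615), and was called at 1.12 without passage 5 replicate 1. Over the alternatives that did not leave out an array it ranged from -0.01 to 0.85. MEF minus MES was -0.45, passage 15 minus MEF was -0.04 and passage 15 minus MES was -0.50 (adjusted p = 0.32 for the last).

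Sfn, which encodes 14-3-3 sigma, a protein that holds cells in G2 and is best known from epithelia, was highest in MES. It read 8.37, 8.17 and 8.28 there and 7.18, 7.32 and 7.52 at passage 15. It read 6.37, 6.16 and 5.91 in MEF and 5.91, 5.92 and 5.87 at passage 5. MES lay above passage 15, and passage 15 above both MEF and passage 5, without overlap, while the lowest MEF array lay among the passage 5 arrays.

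MEF lay below MES in Sfn by -2.13, 4.38-fold (adjusted p = 4.13e-07), and passage 5 by -2.38, 5.20-fold (adjusted p = 3.24e-07). Passage 15 exceeded passage 5 by 1.45 (adjusted p = 8.63e-06) and MEF by 1.20 (adjusted p = 1.52e-05). It remained below MES by -0.93 (adjusted p = 0.000738), just under 2-fold, and passage 5 minus MEF was -0.25 (adjusted p = 0.235). The rise to passage 15 was smaller under some settings. Passage 15 minus MEF was 0.86 in the authors' deposited normalized table, 0.93 without background correction, 0.90 with an offset of 50 and 0.55 with arrays scaled to the median of all probes, and passage 15 minus passage 5 was 0.66 under that scaling. Relative to the median of all genes under that scaling, these 2 differences were 0.87 and 1.34.

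Epithelial markers were read beside Sfn. Of 13 with a probe, 8, 9, 6 and 7 were detected on all arrays of MEF, passage 5, passage 15 and MES, and their mean level per array was 6.41 to 6.64, 6.80 to 6.82, 6.13 to 6.19 and 6.76 to 6.80. Of 9 tested, 2 were higher and 2 lower in MEF than in MES, 2 higher and 1 lower at passage 5 than in MES, and 0 higher and 4 lower at passage 15 than in MES. From MEF to passage 15, 0 rose and 2 fell, from MEF to passage 5, 1 rose and 0 fell, and between the passages 0 rose and 4 fell. In MEF minus MES the keratins Krt8 and Krt18 gave -2.22 and -1.32, while Tjp1, a tight junction protein, and Esrp1, a splicing factor, gave 1.5 and 1.13. At passage 15 minus MES, Krt8 and Krt18 gave -2.55 and -1.72. The part of these markers in the Sfn result was not tested. The second Sfn probe lay between 4.40 and 4.56 and was detected on 0 of 12 arrays.

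Ccng1 encodes cyclin G1, an early p53 target that takes part in feedback on Mdm2, and its probes disagreed in sign. The brightest probe (105290192) read 11.30, 11.45 and 11.80 in MEF, 11.18, 11.12 and 11.19 at passage 5, 10.94, 10.86 and 10.44 at passage 15, and 10.69, 10.93 and 10.71 in MES. It was highest in MEF and lowest at passage 15 and in MES, which overlapped. Probe 870402 read 9.35, 9.33 and 9.16 in MEF, 9.78, 9.95 and 9.86 at passage 5, 11.03, 11.13 and 11.09 at passage 15, and 9.75, 10.37 and 10.15 in MES. Probe 6110594 read 8.77, 8.81 and 8.89 in MEF, 9.57, 9.74 and 9.64 at passage 5, 10.47, 10.52 and 10.34 at passage 15, and 9.34, 9.89 and 9.76 in MES. On both of these the MEF arrays were lowest and the passage 15 arrays highest, the reverse of the brightest probe.

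Passage 15 minus MEF was 1.81 on probe 870402 (adjusted p = 1.17e-06) and 1.62 on probe 6110594 (adjusted p = 1.74e-06), both called, but -0.77 on the brightest probe (adjusted p = 0.00128), where 28.4% of all probes were called. Passage 15 minus passage 5 was 1.22 on probe 870402 (adjusted p = 4.27e-05), 0.79 on probe 6110594 and -0.42 on the brightest (adjusted p = 0.0433). MEF minus MES was -0.81 and -0.84 on the 2 dimmer probes and 0.74 on the brightest (adjusted p = 0.00219). By the rule that a gene is read from its brightest probe, Ccng1 was called in no comparison, and no single direction can be given for it. The 3 probes carry the same transcript accession in the platform annotation, given without a version number for the brightest probe only. The probe sequences that would place them on the transcript were not used here. Passage 15 minus MES was 0.99 on probe 870402 (adjusted p = 0.000764), 0.78 on probe 6110594 and -0.03 on the brightest, and the first was called without passage 15 replicate 1 (1.02), MES replicate 2 (1.13) or MES replicate 3 (1.02). Scaling arrays to the median of all probes called the brightest probe for MEF minus MES (1.05) and passage 15 minus MEF (-1.16). It also called that probe for passage 15 minus passage 5 (-1.16) and passage 5 minus MES (1.05). The median of all genes stood at 0.25, -0.31, -0.68 and 0.61 in these comparisons, so each call had the sign of that shift. On that scale the passage 15 minus passage 5 difference of probe 870402 was 0.47. The 4th probe, which did not pass the filter, lay between 4.68 and 5.17.

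**Figure D3:**
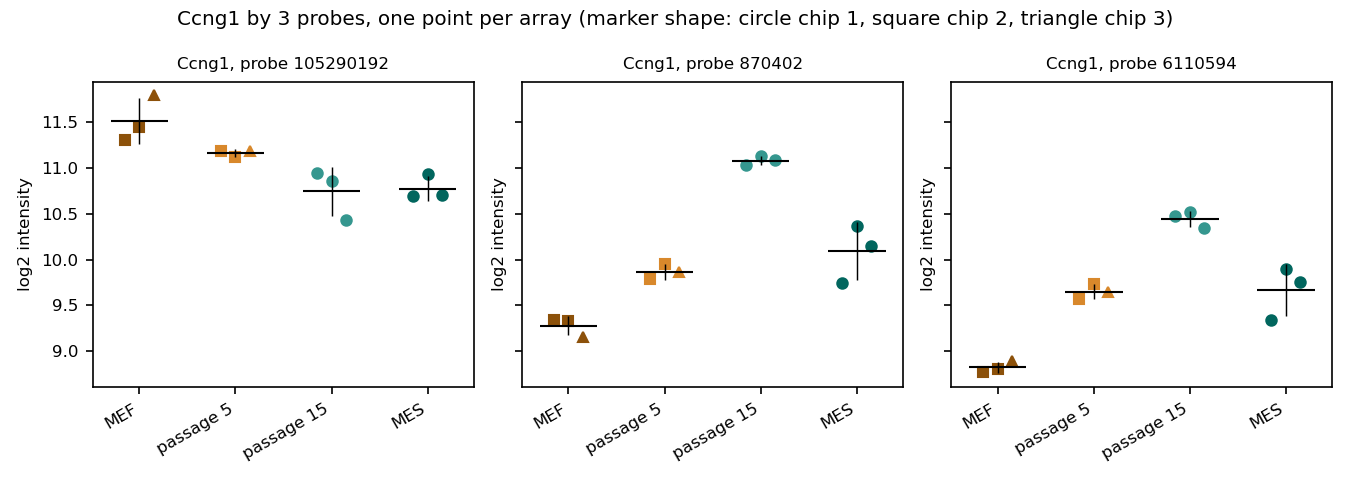
Log2 intensity (y axis) of the 3 Ccng1 probes that passed the detection filter on every array of MEF, passage 5 (P5), passage 15 (P15) and MES; marker shapes show the chip, bars the mean and vertical lines the SD (n = 3). The brightest probe is highest in MEF, and the other 2 are lowest in MEF and highest at passage 15.

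Sesn2, a sestrin that restrains mTORC1 under stress and answers to both p53 and ATF4, lay near background. It read 5.77, 5.26 and 4.92 in MEF, 5.28, 5.24 and 5.09 at passage 5, 4.83, 5.00 and 5.07 at passage 15, and 4.60, 4.98 and 5.18 in MES. It was detected on 2 MEF arrays, 3 passage 5 arrays, 0 passage 15 arrays and 1 MES array, and MEF overlapped every other group. Its widest difference was MEF minus MES, 0.40 (adjusted p = 0.107), and no comparison was called. The 95% interval of that difference ran from -0.04 to 0.84.

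The other genes of the pathway were described from a list of 40 further p53 targets, 35 with a probe and 31 tested. Of the 31, 4 were higher and 5 lower in MEF than in MES, 9 rose and 4 fell from MEF to passage 15, and 2 rose and 2 fell from MEF to passage 5 (7 calls without passage 5 replicate 1). From passage 5 to passage 15, 4 rose and 4 fell, against MES 4 were higher and 4 lower at passage 5, and 1 was higher and 1 lower at passage 15 (4 calls without MES replicate 2). The median differences over the 31 were -0.18, 0.24, 0.21, -0.07, 0.12 and 0.16 in that order. Over all genes, 21.3, 26.5, 11.8, 17.0, 14.6 and 6.87% were called in these comparisons, in the same order. Those shares also stand beside the counts of every smaller gene list in this report, and no list was tested as a set. The list moved both ways in every comparison.

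Arrest genes other than the members were split. Of 8 tested, 1 rose and 2 fell from MEF to passage 15, 0 rose and 2 fell from MEF to passage 5, and 3 were higher and 1 lower in MEF than in MES. Plk2, a polo-like kinase, read 9.38, 9.66 and 9.79 in MEF, 8.30, 7.99 and 7.35 at passage 5, 7.65, 7.54 and 8.05 at passage 15, and 8.09, 7.99 and 8.07 in MES. As with Cdkn1a, the MEF arrays stood above all others. Plk2 fell from MEF by 1.73 at passage 5 (adjusted p = 8.95e-05) and by 1.86 at passage 15 (adjusted p = 1.44e-05), and MEF exceeded MES by 1.56 (adjusted p = 8.67e-05).

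Gadd45g, a relative of Gadd45a, was not above background on any passage 15 or MES array. MEF was at least 3.68-fold above MES and at least 3.58-fold above passage 15, a bound that sets the dim group at the lowest signal detected on its arrays, and passage 5 fell from MEF by 1.57 (adjusted p = 0.000112). Plk3 went the other way, 1.29 higher at passage 15 than in MEF (adjusted p = 4.27e-06) and -1.22 in MEF minus MES. Ccng2, the cyclin G1 relative, was 1.70 higher at passage 5 than in MES and fell by 1.20 to passage 15, and Gadd45b fell by 1.37 between the passages. From passage 5 to passage 15, 0 arrest genes rose and 2 fell, and against MES 2 were higher and 1, Gtse1 (-1.12), was lower at passage 5. None was called between passage 15 and MES by limma, where 2 passed an unadjusted p under 0.05 and 0 an adjusted one.

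Several death genes rose by passage 15. Of 12 tested, 6 were higher at passage 15 than in MEF and 0 lower, where 12.2% of all genes were higher and 14.3% lower. Their median difference was 1.11 beside 0.13 over all genes. From passage 5 to passage 15, 4 rose, beside 6.73% of all genes. The count of 6 was 3 with arrays scaled to the median of all probes, where the median of all genes stood at -0.31. Apaf1, the core of the apoptosome, read 5.23, 5.19 and 4.85 in MEF, 5.43, 5.61 and 4.81 at passage 5, 7.49, 7.49 and 7.75 at passage 15, and 6.09, 7.02 and 7.06 in MES. The passage 15 arrays were highest and MEF and passage 5 overlapped near background. Passage 15 exceeded MEF by 2.48 (adjusted p = 5.77e-06) and passage 5 by 2.29 (adjusted p = 2.29e-05).

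Trp53inp1, a nuclear cofactor of p53, was 1.85 higher at passage 15 than in MEF (adjusted p = 1.67e-05) and also exceeded MES by 1.16 (adjusted p = 0.00293), the 1 death gene called between passage 15 and MES (3 without MES replicate 2, and 2 without MES replicate 3 or passage 15 replicate 1). Between passage 15 and MES, 8 of 12 death genes passed an unadjusted p under 0.05 by limma, 7 higher and 1 lower at passage 15. An adjusted p under 0.05 was passed by 7, and the median difference over the 12 was 0.52 beside 0.01 over all genes. Pmaip1, which encodes the BH3-only protein Noxa, rose by 1.67 from MEF to passage 15 (adjusted p = 3.75e-05), with 0.87 on its other probe. Pidd1, the scaffold of the PIDDosome, rose by 1.40, Aen, an apoptosis nuclease, by 1.32 (0.66 on its other probe), and Bid, a BH3-only protein, by 1.28. From MEF to passage 5 no death gene was called by limma. There 5 of 12 passed an unadjusted and 3 an adjusted p under 0.05, all under 2-fold, and 1 was called without MEF replicate 1 or passage 5 replicate 1. Against MES, Apaf1 (-1.63) and Bid (-1.62) were lower in MEF, and Apaf1 (-1.44), Bid (-1.20) and Aen (-1.16, and -0.40 on its other probe) were lower at passage 5, 2 and 3 of 12 genes.

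Targets in DNA repair and metabolism had 11 tested genes, of which 2 rose and 2 fell from MEF to passage 15 and 2 rose and 0 fell from MEF to passage 5 (4 calls without passage 5 replicate 1, and 0 in the authors' deposited normalized table). Ddit4, an mTORC1 inhibitor also known as Redd1, read 8.04, 8.18 and 8.54 in MEF, 8.98, 9.16 and 9.45 at passage 5, 6.13, 6.84 and 7.37 at passage 15, and 6.91, 6.02 and 6.60 in MES. Passage 5 was highest, MEF next, and passage 15 and MES overlapped below them. Passage 5 exceeded MES by 2.68 (adjusted p = 2.25e-05), and passage 15 fell by 2.41 from passage 5 (adjusted p = 3.48e-05) and by 1.48 from MEF (adjusted p = 0.000771).

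Ddb2, the damage sensor of nucleotide excision repair, was 1.25 higher at passage 5 and 1.45 higher at passage 15 than in MEF. Its other probes gave 0.39 to 0.62 at passage 5 and 1.32 to 1.60 at passage 15. Dcxr, a carbonyl reductase, was 1.11 and 1.95 higher in the same comparisons. Against MES, 1 gene of this group was higher and 2 lower in MEF, and 2 were higher at passage 5. From passage 5 to passage 15, 0 rose and 2 fell, Ddit4 and Ercc5, an endonuclease of excision repair (-1.07, but 0.23 on its other probe). That count was 1 without passage 5 replicate 3. Tigar, a fructose bisphosphatase, was the 1 gene lower at passage 15 than in MES (-2.29, adjusted p = 0.0174), but its passage 15 arrays read 9.05, 8.60 and 5.64, the difference was -1.23 without replicate 3, and its other probe gave -0.19.

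**Figure D4:**
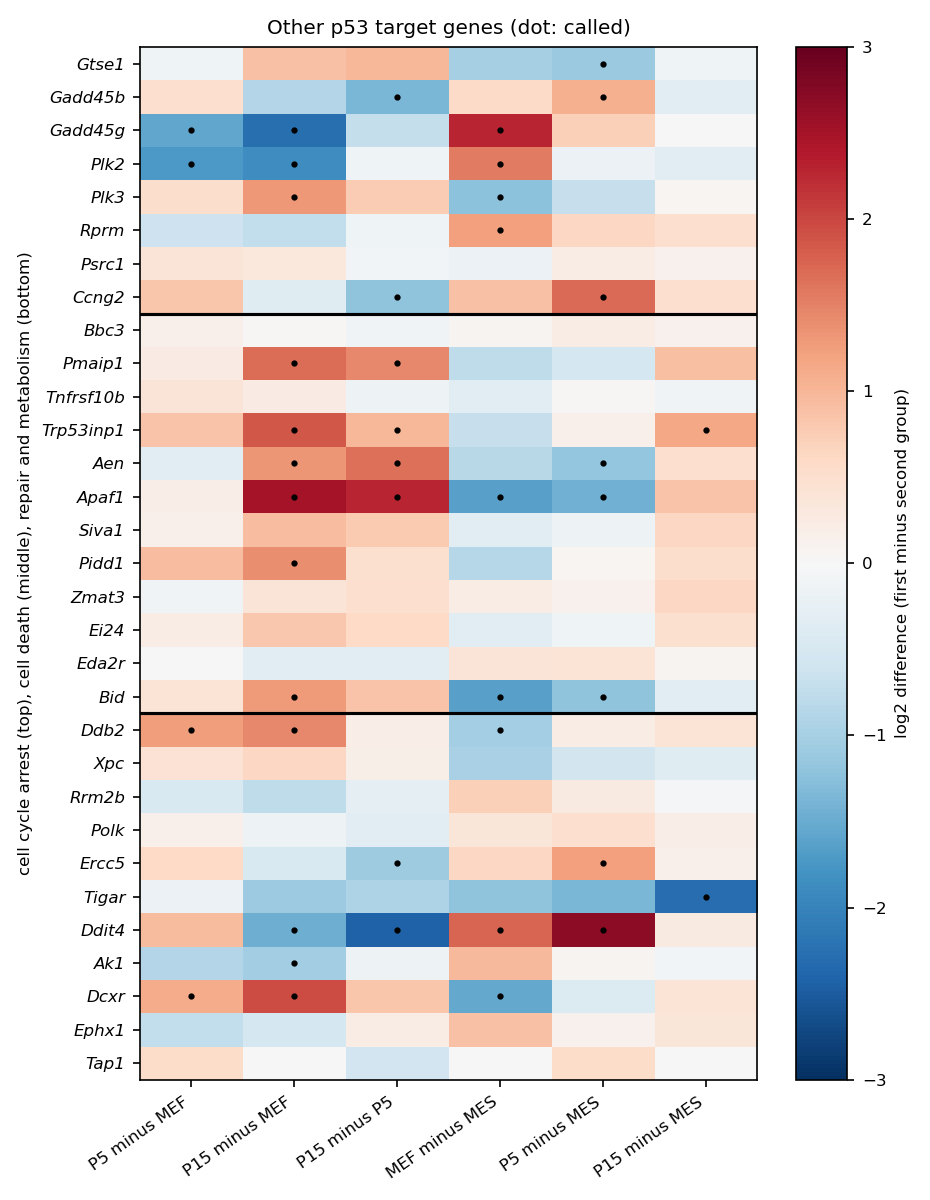
Log2 differences (colour) of the 31 other p53 targets tested (vertical axis, grouped by arrest, death, and repair and metabolism) in the 6 comparisons between MEF, passage 5 (P5), passage 15 (P15) and MES (horizontal axis); a dot marks a called gene. The colour scale runs from -3 to 3, and the death genes called in P15 minus MEF are all positive.

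Among regulators of p53, 21 genes were tested. From MEF to passage 15, 3 rose and 2 fell, 1 rose from MEF to passage 5, 1 rose and 1 fell between the passages, 1 was higher and 1 lower in MEF than in MES, and 1 was higher at passage 5 than in MES. None was called between passage 15 and MES by limma, where 7 passed an unadjusted and 5 an adjusted p under 0.05, all under 2-fold, and 1 was called without MES replicate 2 or passage 15 replicate 1. The 2 calls of MEF minus MES were 4 without MEF replicate 1 or MES replicate 1 and 1 without MEF replicate 3. The 1 call of passage 5 minus MEF was 2 without MEF replicate 1 or passage 5 replicate 1, and 0 without MEF replicate 2, MEF replicate 3 or passage 5 replicate 2. Sirt1, a deacetylase that acts on p53, was 1.70 higher at passage 15 than in MEF (adjusted p = 1.59e-05) and Ppm1d, the phosphatase Wip1, 1.36 higher (adjusted p = 1.56e-06). Kat5, an acetyltransferase of p53, was 1.45 higher and fell under 2-fold in the authors' deposited normalized table (0.85). Cdkn2a, whose locus encodes the Mdm2 inhibitor Arf and the kinase inhibitor p16, fell by 1.11 from MEF to passage 15 on its brightest probe, with 0.02 on its other probe. Mdm4, the partner of Mdm2, fell by 1.94 between the passages on one probe, with 0.17 on the other.

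The genes that p21 acts with or on were read beside Cdkn1a. Of 15 CDK inhibitors and partners tested, 3 rose and 4 fell from MEF to passage 15, and 0 rose and 4 fell from MEF to passage 5. The differences in these comparisons were -3.82 and -2.65 for Cdkn2b (p15), -2.90 and -1.87 for Cdkn1c (p57), and -4.24 and -2.46 for Ccnd2 (cyclin D2). Between the passages 2 rose and 3 fell (3 calls without passage 15 replicate 2 or passage 5 replicate 1). Against MES, 4 were higher and 2 lower in MEF, 0 were higher and 2 lower at passage 5, and 1 was higher and 2 lower at passage 15.

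Of 16 cell cycle genes that p21 represses, 6 rose and 2 fell from MEF to passage 15, with a median difference of 0.85, and 1 rose from MEF to passage 5 (2 without MEF replicate 1). The total of 8 was 4 with arrays scaled to the median of all probes, where the median of all genes stood at -0.31. It was 13 with scaling to the detected probes, where that median stood at 0.31. Pcna, the replication clamp, was 2.50 higher at passage 5 (adjusted p = 0.000396) and 2.89 higher at passage 15 (adjusted p = 3.93e-05) than in MEF, whereas Plk1, a mitotic kinase, fell by 1.96 and Ccna2 (cyclin A2) by 1.65 to passage 15. Between the passages 3 rose and 2 fell, and against MES 2 were higher and 1 lower in MEF, 2 were higher at passage 5, and 1, Pcna, was higher at passage 15 (0 without MES replicate 1, passage 15 replicate 2 or passage 15 replicate 3).

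The families of Bax and Sfn were read because Bax had no probe and Sfn stood out. Of 10 BCL2 family genes tested, 3 rose and 1 fell from MEF to passage 15: the BH3-only genes Bik by 2.18 (adjusted p = 3.39e-06) and Bcl2l11, which encodes Bim, by 1.70, the survival gene Bcl2l1 by 1.29, and Bcl2, which fell by 1.12. From MEF to passage 5, 2 rose and 2 fell, and between the passages 3 rose. Against MES, 1 was higher and 3 lower in MEF and 1 was higher and 1 lower at passage 5. None was called at passage 15 against MES by limma, where 4 passed an unadjusted and 3 an adjusted p under 0.05, all under 2-fold, and 1 was called without MES replicate 1 or MES replicate 3.

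None of the 6 other 14-3-3 genes was called lower than in MES, as Sfn was in MEF and at passage 5. Against MES, 3 were higher and 0 lower in MEF and 4 were higher and 0 lower at passage 5. From MEF to passage 15, 0 rose and 2 fell, Ywhaz by 1.72 and Ywhae by 1.16, and between the passages Ywhaz fell by 2.49, Ywhae by 1.47 and Ywhaq rose by 1.03. At passage 15, 2 were higher than in MES (1 without MES replicate 1 or passage 15 replicate 2). From MEF to passage 5 none was called by limma, with 2 past an unadjusted and 0 past an adjusted p under 0.05 (1 called without MEF replicate 3).

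Genes of the ATF4 and unfolded protein response, which also holds the members Sesn2 and Gadd45a, were read last. Of 13 tested, 7 were higher and 1 lower in MEF than in MES, 0 rose and 3 fell from MEF to passage 5, 1 rose and 6 fell from MEF to passage 15, and 1 rose and 7 fell between the passages. Against MES, 7 were higher and 1, Gadd45a, was lower at passage 5. At passage 15, 2 were higher and 2 lower than in MES (0 without MES replicate 1 and 1 without passage 15 replicate 2). Chac1, a glutathione-degrading enzyme, was 4.59 higher in MEF than in MES (adjusted p = 2.72e-07) and fell by 3.80 to passage 15, and Nupr1, a stress-induced chromatin protein, fell by 4.56 from MEF to passage 15 (adjusted p = 1.12e-06).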

How the data were processed

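Per the labels, biotinylated cRNA was made with MessageAmp from Trizol-extracted, DNase-treated total RNA. The deposited non-normalized table holds 1 intensity per probe and array on a linear scale, with background already subtracted since values below 0 occur, and a detection p-value beside it, per the file headers. A second deposited table holds the authors' log2 values, quantile normalized over the 12 arrays, which equal those of the series matrix. Its software and offset are not stated in the sources used.

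The neqc function of limma 3.58.1 (R 4.3.3) applied normexp background correction, with the negative controls' mean and spread estimated through the detection column, an offset of 16 and quantile normalization, so a log2 difference understates the change of dim probes. Of 46657 probes, 20 with a date in place of a value were left out, and 22380 carried 1 gene symbol, all found in RefSeq. A probe was kept if, in 1 or more groups, every array had a detection p-value under 0.05. One model with 4 group means over 12 arrays was fitted with lmFit and eBayes, with 8 residual degrees of freedom, and p-values were adjusted by Benjamini-Hochberg over all 19444 probes within each of the 6 comparisons, two-sided. A gene was read from its brightest kept probe and called at an adjusted p under 0.05 and a log2 difference of at least 1. A probe not detected on any array of a group has only a bound there, given as "at least". The number of arrays limits the precision.

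The members and the gene lists were chosen with earlier results of these data known. From each list, up to 4 called genes with the largest difference per comparison could be named, or the 2 largest where none was called. Genes most like Cdkn1a were ranked by Pearson r over the 12 arrays; the same for Trp53 was not possible without a probe. The promoter window and spacer were changed after a first look. The model was tested on simulated data with known changes. Alternatives were the authors' table, median scaling, no normexp, an offset of 50, other filters, blocks for chip and replicate number, and leaving out each array. Promoters were read with Python 3.11.15.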

Additional observations from a re-analysis of the deposited data

How the results depend on the processing

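No called member difference changed sign under an alternative. Uncalled differences that did included those of Mdm2, with the scaling, and of Sesn2, Gadd45a and Ccng1. For example, passage 5 minus MES in Sesn2 was 0.29 and ranged from -0.34 to 0.50 over the settings. The authors' deposited normalized table, no normexp, an offset of 50 and chip 2 alone each gave 1 called member for passage 5 minus MEF and 2 other targets, as against 2 and 4. Both median scalings also gave 1 member there, and scaling over all probes gave 8 other targets. Between the passages, the other targets called were 4 with the authors' table and 5 with no normexp or an offset of 50, as against 8, and the members called were 3 with scaling over all probes. For passage 5 minus MES they were 5 with the authors' table and 4 with an offset of 50, as against 8. For passage 15 minus MES, no detection filter or a fit to the compared groups alone gave 1, as against 2. Without the fold threshold, the members called were 3 between the passages and 1 for passage 15 minus MES, and the other targets called were 24 for MEF minus MES, 17 for passage 5 minus MEF, 22 for passage 15 minus MEF, 17 between the passages, 14 for passage 5 minus MES and 8 for passage 15 minus MES.

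Leaving out single arrays gave 1 to 3 called members for passage 5 minus MEF, 1 to 2 between the passages, 1 to 2 for passage 5 minus MES and 0 to 1 for passage 15 minus MES. For the other targets it gave 4 to 7 for passage 5 minus MEF and 2 to 4 for passage 15 minus MES. The cause of these changes was not tested. Of single member differences, 1572 of the values computed under alternatives stayed on their side of the threshold, 32 crossed into a call and 20 lost one. The 1 other value, with no test, was Gadd45a in passage 5 minus MEF on chip 3, -1.21. The share of calls that were higher depended on scaling. For MEF minus MES, passage 5 minus MEF, passage 15 minus MEF, passage 15 minus passage 5, passage 5 minus MES and passage 15 minus MES it was 61.2, 41.2, 46.1, 39.5, 68.0 and 48.8%. With median scaling over all probes it was 90.4, 64.1, 15.9, 3.64, 98.4 and 46.1%, and the median of all genes stood at 0.25, 0.30, -0.31, -0.68, 0.61 and -0.01. With scaling over detected probes, added after that result was seen, it was 44.5, 41.8, 60.8, 62.9, 40.8 and 47.7%, and that median stood at -0.36, 0.07, 0.31, 0.19, -0.24 and 0.01.

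Replicate numbers were not treated as pairs, since the same-number correlations were not all above a set limit of 0.1 in any comparison. For passage 5 minus MEF they were 0.065, 0.298 and 0.215, and 3 of 3 passage 5 arrays were most like the MEF array of their own number. Replicates 1 and 2 of both groups lay on the same chip, chip 2, and replicate 3 of both on chip 3. Whether these arrays are paired was not tested. With the replicate block the called members stayed at 3, 2, 3, 1, 2 and 0 in the order above and no count moved by over 1.5 times. Signal limits Sesn2, the dimmer Mdm2 probe and the dim Ccng1 and Sfn probes, which lay near background.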
